A study of Mus musculus with 48 samples.

Results

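The circadian clock genes described here are 10 genes of the molecular clock: Per1, Per2, Per3, Cry1, Cry2, Arntl, Clock, Nr1d1, Nr1d2 and Dbp. They were chosen by gene symbol, and all 10 were found among the 54532 genes of the table. The study sequenced RNA from the brains of male wild-type C57Bl6 mice, in 48 libraries that form 8 groups of 6. The groups are 4 treatments in each of 2 tissues, the brain hemisphere and the hippocampus. Vehicle mice received saline from an osmotic minipump for 2 weeks. Angiotensin II mice received angiotensin II, a peptide hormone that raises blood pressure, at 0.7 mg per kg per day from the same kind of pump. The groups named vehicle plus hydralazine and angiotensin II plus hydralazine had the matching pump and also hydralazine, a drug that relaxes arteries and lowers blood pressure, at 50 mg per kg in the drinking water. All mice carried a pump, so no group was free of surgery. The mice's age, the time of day at which they were killed and the number of animals behind a library are not in the labels, and nothing in them says whether a hemisphere and a hippocampus came from the same mouse.

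In the clock of mammalian cells, ARNTL (also called BMAL1) and CLOCK bind DNA as a pair and switch on the Per and Cry genes, Nr1d1, Nr1d2 and Dbp. PER and CRY proteins then return to the nucleus and block the pair, while the NR1D1 and NR1D2 proteins (REV-ERBs) repress Arntl. Arntl therefore peaks at about the opposite time of day to Dbp and Nr1d1. The Per1 and Per2 promoters also answer to neuronal activity and to glucocorticoid hormone within a short time. In the brain the master clock is the suprachiasmatic nucleus, and weaker clocks run in other regions, the hippocampus among them.

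Promoter windows of these genes were searched for motifs that clock proteins and CREB are known to bind. RefSeq windows on GRCm38.p6, from 250 bases before to 50 bases after an annotated start, matched 9 of the 10 genes by symbol in 13 windows. The windows shown are those of the genes on which the comparisons of phase and of Per1 turn. For Arntl, a further window that held none of the motifs is not shown. Capitals mark the E-box CACGTG and the E-prime box CACGTT, to which ARNTL and CLOCK bind, the D-box TTATGNAA of DBP and its relatives, the RORE TAGGTCA for REV-ERBs, and TGACG, the core of the CRE to which CREB binds. Both strands were searched, so an E-prime box can read AACGTG, and no 2 matches overlap in the windows shown.
Per1, first window, chr11:69098699-69098998, plus strand: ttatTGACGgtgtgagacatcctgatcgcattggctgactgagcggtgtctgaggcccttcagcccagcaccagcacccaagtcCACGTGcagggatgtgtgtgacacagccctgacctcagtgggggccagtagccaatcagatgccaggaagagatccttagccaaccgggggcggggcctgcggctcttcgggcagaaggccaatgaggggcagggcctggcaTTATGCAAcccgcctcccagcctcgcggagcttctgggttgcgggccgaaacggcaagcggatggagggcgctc
Per1, second window, chr11:69099902-69100201, plus strand: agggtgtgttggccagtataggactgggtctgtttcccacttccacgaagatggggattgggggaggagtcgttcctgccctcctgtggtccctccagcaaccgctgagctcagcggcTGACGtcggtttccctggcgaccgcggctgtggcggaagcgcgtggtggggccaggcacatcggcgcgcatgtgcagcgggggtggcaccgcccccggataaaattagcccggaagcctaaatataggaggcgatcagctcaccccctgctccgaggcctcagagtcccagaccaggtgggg
Cry1, chr10:85185005-85185304, minus strand: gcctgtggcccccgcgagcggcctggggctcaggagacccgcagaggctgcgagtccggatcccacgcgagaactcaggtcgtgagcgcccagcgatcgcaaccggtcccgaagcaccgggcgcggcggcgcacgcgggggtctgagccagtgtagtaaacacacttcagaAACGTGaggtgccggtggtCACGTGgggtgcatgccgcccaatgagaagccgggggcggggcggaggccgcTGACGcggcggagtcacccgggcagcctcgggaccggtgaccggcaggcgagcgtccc
Arntl, chr7:113207261-113207560, plus strand: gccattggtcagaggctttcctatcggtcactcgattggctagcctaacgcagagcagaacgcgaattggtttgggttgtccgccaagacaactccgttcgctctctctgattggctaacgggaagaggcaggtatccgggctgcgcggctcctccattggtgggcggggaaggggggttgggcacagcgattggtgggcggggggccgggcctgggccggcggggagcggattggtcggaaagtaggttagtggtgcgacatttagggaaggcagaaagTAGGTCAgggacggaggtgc
Nr1d1, chr11:98775328-98775627, minus strand: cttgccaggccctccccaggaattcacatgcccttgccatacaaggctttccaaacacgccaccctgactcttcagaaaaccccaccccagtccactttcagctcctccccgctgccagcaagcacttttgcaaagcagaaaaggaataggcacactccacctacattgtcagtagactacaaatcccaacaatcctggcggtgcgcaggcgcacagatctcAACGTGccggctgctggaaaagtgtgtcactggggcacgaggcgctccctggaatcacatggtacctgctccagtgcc
Dbp, chr7:45704997-45705296, plus strand: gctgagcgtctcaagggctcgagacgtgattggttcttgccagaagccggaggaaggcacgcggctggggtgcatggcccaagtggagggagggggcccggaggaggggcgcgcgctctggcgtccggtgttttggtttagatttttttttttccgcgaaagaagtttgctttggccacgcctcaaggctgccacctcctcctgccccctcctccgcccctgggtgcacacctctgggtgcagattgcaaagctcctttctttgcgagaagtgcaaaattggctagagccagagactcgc

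Positions of a match are those of its first base, counted from the annotated start. The first Per1 window held a CRE core at -246, an E-box at -166 and a D-box at -24, and the second a CRE core at -132. The Cry1 window held an E-prime box at -79, an E-box at -60 and a CRE core at -8. The Arntl window shown held a RORE at position 30, while the further Arntl window (chr7:113207215-113207514) held none of the 5 motifs. The Nr1d1 window held an E-prime box at -28. The Dbp window held none of the 5 motifs. Of 32851 RefSeq promoter windows of the same length, 7.15% held the E-box, 4.68% the E-prime box, 3.38% the D-box, 2.61% the RORE and 20.8% the CRE core. Counted over the 9 matched genes, 2 had an E-box, 3 an E-prime box, 2 a D-box (Per1 and Per3), 1 a RORE and 3 a CRE core. A match of letters is a description of the window and not a binding site.

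Levels are in FPKM, read counts that the authors scaled to gene length and library depth, so levels can be compared between genes. Reads in genes ran from 15.8 to 23.5 megareads in the hemisphere and from 1.21 to 21 megareads in the hippocampus. In 6 hippocampal libraries fewer than 16000 genes had a read (7805 to 15684, against 18914 to 25610 in the other 42): vehicle replicates 3 and 4, angiotensin II replicate 3, vehicle plus hydralazine replicates 3 and 4, and angiotensin II plus hydralazine replicate 5. These are called the libraries with few genes, and hippocampal results are given with and without them. The shallowest, vehicle plus hydralazine replicate 3, listed Per3, Cry1, Cry2 and Arntl at 0, and angiotensin II replicate 3 listed Cry1 at 0. Replicate 6 of angiotensin II stood apart in the hemisphere, with mitochondrial genes at 2.77% of its reads in genes, where the rest of that group had 5.84% to 6.66%. Markers placed the tissues as labelled in vehicle mice: the summed FPKM of 8 hippocampal genes ran from 324.1 to 445 in the hippocampus and from 74.4 to 88.2 in the hemisphere. The hemisphere also carried cerebellar genes (129.5 to 183.2 FPKM over 4 genes, against 0.706 to 10.3) and choroid plexus genes (479.8 to 836.5 FPKM over 6 genes, against 9.17 to 112.6). Prok2, Nms and Six6, genes of the suprachiasmatic nucleus, were under 0.5 FPKM in every vehicle library. They were found by that threshold, so they do not tell whether the tissues held cells of that nucleus. In bulk tissue, fewer cells of a type and less RNA per cell cannot be told apart.

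All 10 clock genes were expressed in both tissues, and their levels spanned about 1 order of magnitude. In the vehicle hemisphere the order was Nr1d1 at 31.9 ± 2.31 FPKM (mean ± SD, n = 6), Cry2 at 22.4 ± 1.46, Per1 at 21.8 ± 4.23, Dbp at 19 ± 1.05, Nr1d2 at 13.9 ± 1.15, Cry1 at 8.17 ± 1.31, Per2 at 6.69 ± 2.29, Arntl at 4.36 ± 0.23, Clock at 3.4 ± 0.249 and Per3 at 3.35 ± 0.428. By mean, the target genes of the ARNTL and CLOCK pair other than Per3 thus stood above the 2 genes of the pair itself. Per3, also a target, was lowest. Among neighbours in that order, the ranges of the 6 libraries overlapped between Cry2 and Per1, Per1 and Dbp, Cry1 and Per2, Per2 and Arntl, and Clock and Per3. They did not overlap between Nr1d1 and Cry2, Dbp and Nr1d2, Nr1d2 and Cry1, or Arntl and Clock. In the vehicle hippocampus Nr1d1 was again highest, at 17.7 ± 3.2 FPKM, followed by Cry2 at 15.2 ± 0.644, and every pair of neighbours overlapped. Without the libraries with few genes (n = 4), Nr1d1 was at 19.2 ± 0.525 FPKM and Cry2 at 15.3 ± 0.72. These did not overlap then, nor did Nr1d2 and Per2. Some levels may include reads of a neighbour, and the strand setting of the counting is not given in the sources used here. On the other strand, the 3′ end of Nr1d1 overlaps Thra (139.9 FPKM in the hemisphere) by 1075 bases and Dbp overlaps Sphk2 by 737 bases. On the same strand, where a strand setting separates nothing, Per3 lies within the span of Camta1 (13.4 FPKM in the hemisphere). Clock overlaps the pseudogene Ube2n-ps1 (5.41 FPKM) by 459 bases, also on the same strand.

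On GRCm38 the period genes lie on chromosome 11 (Per1, 69095217 to 69109960, plus strand), chromosome 1 (Per2, 91415982 to 91459324, minus) and chromosome 4 (Per3, 151003652 to 151044665, minus). The cryptochrome genes lie on chromosome 10 (Cry1, 85131700 to 85185064, minus) and chromosome 2 (Cry2, 92403646 to 92434043, minus). Arntl and Dbp share chromosome 7, at 113207465 to 113314126 and 45705088 to 45710203, both on the plus strand. Clock is on chromosome 5 (76209868 to 76304792, minus), Nr1d1 on chromosome 11 (98767932 to 98775333, minus) and Nr1d2 on chromosome 14 (18204054 to 18239127, minus). All values are of whole genes.

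The group means are given across the 4 treatments before any test. Among the repressors, the 4 group means in the hemisphere ran from 15.6 to 21.8 FPKM for Per1, from 4.95 to 6.69 for Per2, from 3.33 to 3.63 for Per3, from 6.44 to 8.17 for Cry1 and from 21.1 to 22.4 for Cry2. In the hippocampus they ran from 14.4 to 16.2 FPKM for Per1, from 3.68 to 5.19 for Per2, from 2.06 to 3.11 for Per3, from 2.71 to 3.5 for Cry1 and from 13.7 to 17.5 for Cry2. The activators had hemisphere means of 3.93 to 4.61 FPKM (Arntl) and 3.3 to 3.52 FPKM (Clock), and hippocampal means of 2.71 to 3.77 and 3.56 to 3.91 FPKM. Nr1d1, Nr1d2 and Dbp had hemisphere means of 29.9 to 31.9, 11.7 to 14.9 and 17.6 to 19.7 FPKM, and hippocampal means of 17 to 19.6, 10.4 to 11.7 and 14.1 to 17.8 FPKM. Over all libraries every hippocampal mean of Clock lay above its hemisphere means. Without the libraries with few genes, its hippocampal mean in angiotensin II plus hydralazine was 3.35 FPKM, inside the hemisphere range. For Per3, Cry1, Cry2, Nr1d1 and Arntl every hippocampal mean lay below the hemisphere means.

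**Figure D1:**
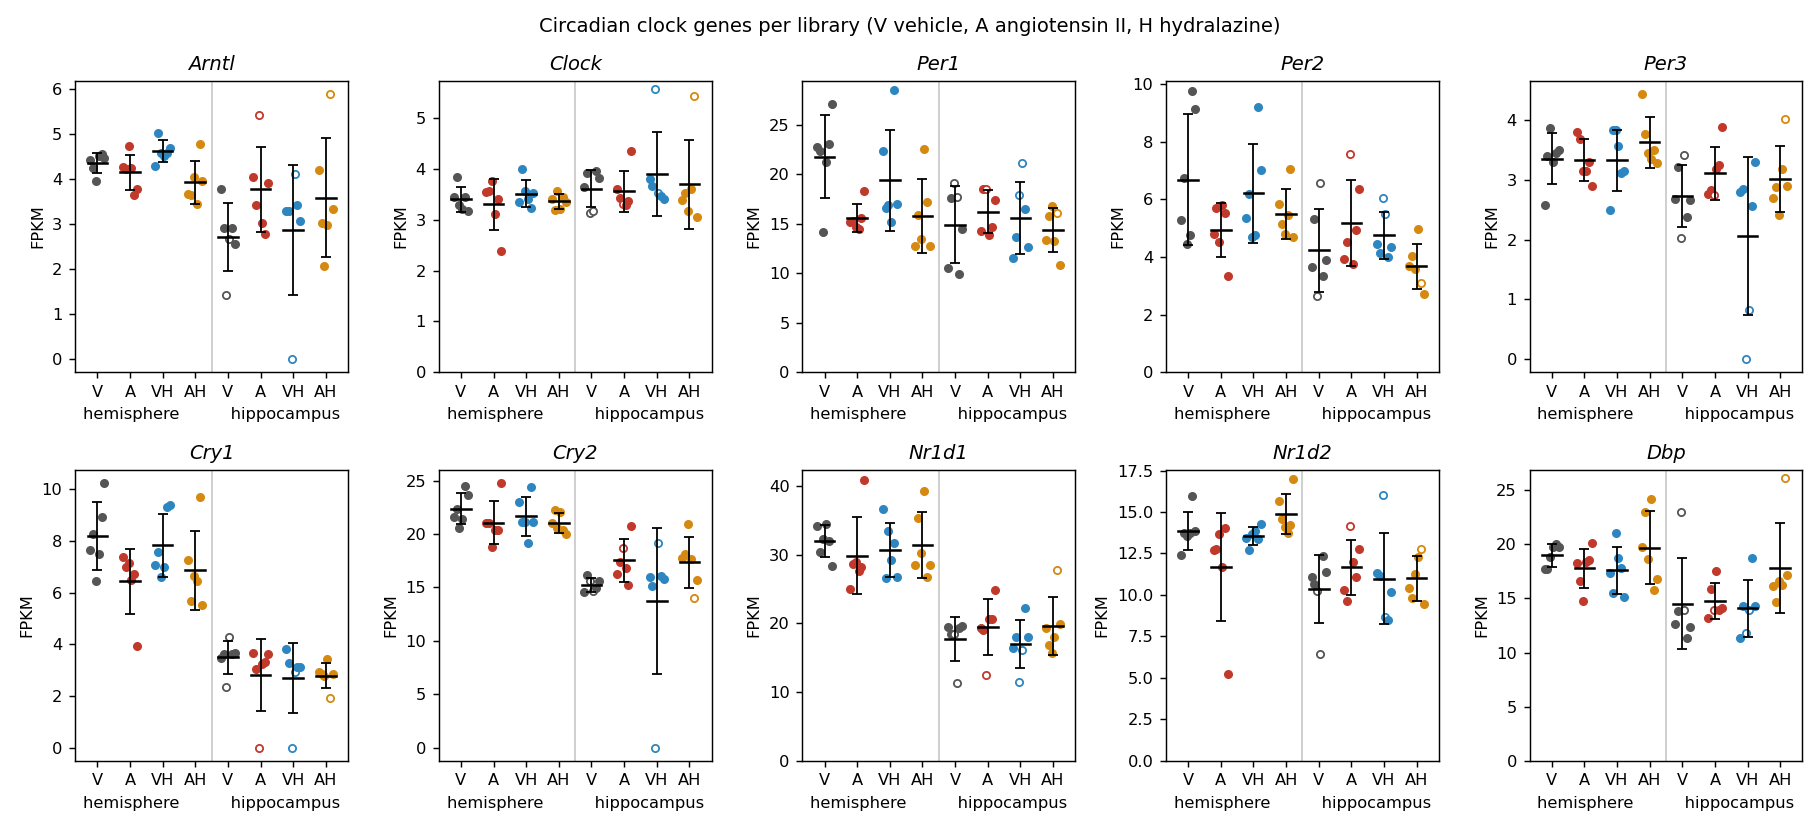
FPKM (linear axis) of each clock gene in every library, by tissue and treatment (V vehicle, A angiotensin II, VH vehicle plus hydralazine, AH angiotensin II plus hydralazine). Points are libraries, open where few genes were detected, black lines the mean and bars the SD of 6. The treatments compared within a tissue overlap for every clock gene, and overlap over all genes was not counted. Cry1 and Nr1d1 sit lower in the hippocampus.

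Whether angiotensin II moved the clock was asked first in the hemisphere. No clock gene passed the test between angiotensin II and vehicle (limma on log2(FPKM + 0.5), Benjamini-Hochberg adjusted p under 0.05 over 16747 genes). Of all genes, 12 or 0.0717% passed. The libraries of both groups overlapped for all 10 clock genes, but the share of all genes that did so was not counted. All 10 had a lower mean with angiotensin II, although Per3 turned to a log2 fold change of 0.03 with quantile normalization, and Per3 and Clock both turned to 0.03 without angiotensin II replicate 6. Their median log2 fold change was -0.10, and 50.1% of all genes were lower, with a median of -0.0003. At an unadjusted p under 0.05 stood 2 of the 10, against 9.24% of all genes.

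Per1, a period gene that neuronal activity also induces, ran from 14.2 to 27.1 FPKM with a median of 22.6 in the 6 vehicle hemispheres, and from 14.4 to 18.3 FPKM with a median of 15.2 with angiotensin II. Of the vehicle libraries 5 lay above all those of angiotensin II, and vehicle replicate 3 lay below them. The log2 fold change was -0.45 ± 0.15 (SE; limma adjusted p = 0.428). Leaving out 1 library at a time moved it between -0.57 and -0.38, without a call. Cry1, a repressor of the ARNTL and CLOCK pair, ran from 6.43 to 10.2 FPKM with a median of 7.97 in vehicle, and from 3.94 to 7.36 FPKM with a median of 6.85 with angiotensin II. Its lowest value came from angiotensin II replicate 6, and the groups overlapped. The log2 fold change was -0.33 ± 0.14 (limma adjusted p = 0.522), and -0.21 ± 0.12 without angiotensin II replicate 6 (adjusted p = 0.732). Per2 (log2 fold change -0.36, 95% interval -0.73 to 0.0061) and Nr1d2 (-0.30, -0.60 to 0.0021) were next, and Nr1d2 was at -0.09 without angiotensin II replicate 6. The other 6 intervals were -0.20 to 0.19 for Per3, -0.21 to 0.04 for Cry2, -0.21 to 0.07 for Arntl, -0.20 to 0.11 for Clock, -0.33 to 0.11 for Nr1d1 and -0.29 to 0.10 for Dbp. Without angiotensin II replicate 6, Nr1d1 went from -0.11 to -0.20 ± 0.09 and Cry2 from -0.09 to -0.13 ± 0.05 (limma adjusted p = 0.628 and 0.579). With Per1 they were the 3 genes then at an unadjusted p under 0.05, against 7.37% of all genes.

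In the hippocampus none of the 10 passed between angiotensin II and vehicle, where 0% of 15267 genes did, and none had an unadjusted p under 0.05 (1.38% of all genes did). Of the 10, 8 had a higher mean, and Cry1 and Clock a lower one, where 42.8% of all genes were lower. The median log2 fold change was 0.16 against 0.04 over all genes. The intervals were wide for the genes listed at 0 in a hippocampal library of the fit, from -1.52 to 0.47 for Cry1 and from -0.98 to 1.36 for Cry2. Without the 6 libraries with few genes 7 of the 10 were higher, since Nr1d2 turned from 0.18 to -0.03. Cry1 went from -0.52 to -0.08, Arntl from 0.42 to 0.15, Per1 from 0.15 to 0.28 and Dbp from 0.05 to 0.24 ± 0.11 (limma adjusted p = 0.808). Dbp was then the 1 gene at an unadjusted p under 0.05, against 5.34% of all genes.

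**Figure D2:**
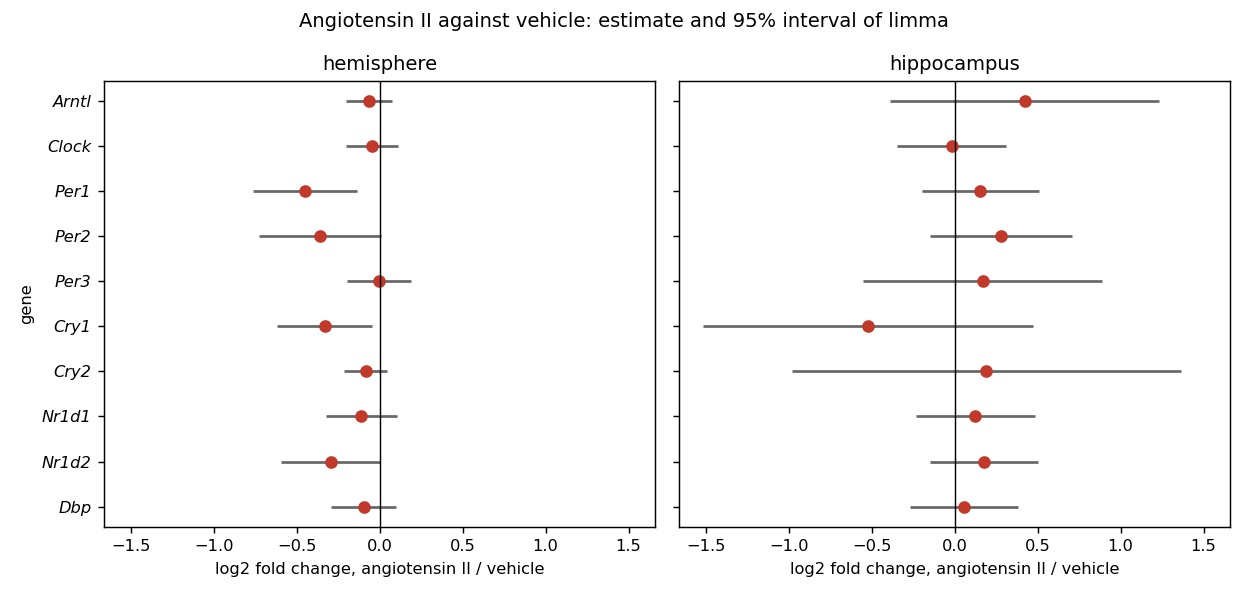
Log2 fold change of each clock gene between angiotensin II and vehicle, on the log2(FPKM + 0.5) scale, with its 95% interval from limma (6 libraries a group, 24 in each fit). In the hemisphere all 10 estimates lie at or below 0, from -0.45 for Per1 to -0.004 for Per3, and in the hippocampus 8 of 10 lie above 0, with most intervals wider.

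Whether the response to angiotensin II differed between the tissues was tested directly. None of the 10 passed (0% of 17643 genes), and 3 had an unadjusted p under 0.05, against 2.92% of all genes. These were Per1, with a difference of 0.60 ± 0.23 on the log2 scale (hippocampus minus hemisphere), Per2 with 0.64 ± 0.27 and Nr1d2 with 0.47 ± 0.22, each with a limma adjusted p of 1. Without the 6 libraries with few genes Per1 was at 0.73 ± 0.23, Per2 at 0.55 ± 0.25, Dbp at 0.33 ± 0.15 and Cry2 at 0.25 ± 0.10 (all adjusted p = 0.666), the 4 genes then at an unadjusted p under 0.05, against 7.31% of all genes. Nr1d2 was no longer among them, at 0.27 ± 0.19 (adjusted p = 0.707). Without angiotensin II replicate 6 of both tissues Nr1d2 was at 0.24 ± 0.17 and Per2 at 0.48 ± 0.28, and Per1 alone had an unadjusted p under 0.05, at 0.63 ± 0.25. For the effect of hydralazine in angiotensin II mice, none of the 10 differed between the tissues (0% of all genes passed), and 2 had an unadjusted p under 0.05 against 2.45% of all genes: Per2 at -0.57 ± 0.27 and Nr1d2 at -0.47 ± 0.22 (both limma adjusted p = 0.9998). Without the libraries with few genes Per2 was at -0.42 ± 0.24 and Nr1d2 at -0.46 ± 0.19, the latter the 1 gene at an unadjusted p under 0.05 (8.91% of all genes). Without angiotensin II replicate 6 they were at -0.41 ± 0.28 and -0.24 ± 0.17.

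Hydralazine was compared within angiotensin II mice and within vehicle mice, and no clock gene passed in either tissue. These comparisons share groups with one another and with the comparison of angiotensin II and vehicle, so their values are not independent. In the hemisphere, angiotensin II plus hydralazine against angiotensin II gave 0 of 10 (0% of all genes), and 1 of 10 at an unadjusted p under 0.05 (4.54% of all genes). This was Nr1d2, the second REV-ERB, which ran from 5.24 to 14 FPKM with a median of 12.8 with angiotensin II, and from 13.7 to 17 FPKM with a median of 14.4 with hydralazine added. The value of 5.24 FPKM belongs to replicate 6, and the other 5 of that group were at 11.7 FPKM or more. The log2 fold change of 0.39 ± 0.15 (limma adjusted p = 0.851) became 0.19 ± 0.06 (adjusted p = 0.9998) without that replicate. Vehicle plus hydralazine against vehicle gave 0 of 10 by either threshold (0% of all genes passed and 1.67% had an unadjusted p under 0.05).

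Against vehicle, angiotensin II plus hydralazine gave 0 of 10 (0% of all genes) and 2 of 10 at an unadjusted p under 0.05 (5.21% of all genes). Per1 had a log2 fold change of -0.46 ± 0.15 (limma adjusted p = 0.679), and ran from 12.7 to 22.5 FPKM with a median of 14.7 in the 6 libraries. Arntl had -0.14 ± 0.07 (adjusted p = 0.951). Against vehicle plus hydralazine, angiotensin II plus hydralazine also gave 0 of 10 (0% of all genes), and 1 of 10 at an unadjusted p under 0.05 (2.99% of all genes). This was Arntl, the partner of CLOCK, which ran from 4.28 to 5.03 FPKM with a median of 4.58 in vehicle plus hydralazine, and from 3.45 to 4.78 FPKM with a median of 3.81 in angiotensin II plus hydralazine. With both drugs 5 of the 6 libraries lay below all those of vehicle plus hydralazine, and replicate 5 lay inside their range. Its log2 fold change was -0.21 ± 0.07 (limma adjusted p = 0.9999). The interaction of angiotensin II and hydralazine gave 0 of 10 (0% of all genes) and 1 of 10 unadjusted (2.75% of all genes), again Nr1d2, at 0.42 ± 0.21 (adjusted p = 0.9998) and at 0.22 ± 0.08 without replicate 6 of angiotensin II.

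In the hippocampus the remaining 5 comparisons of treatments also gave 0 of 10 each (0% of all genes). At an unadjusted p under 0.05 there was 1 gene in angiotensin II plus hydralazine against vehicle plus hydralazine (5.97% of all genes) and 1 in the interaction (2.4%). There was none with hydralazine in angiotensin II mice (1.65%), none between angiotensin II plus hydralazine and vehicle (1.98%), and none with hydralazine in vehicle mice (5.64%). The first gene was Per3, with 0.73 ± 0.35 (limma adjusted p = 0.649), and it became -0.03 ± 0.10 without the 6 libraries with few genes, of which vehicle plus hydralazine replicate 3 listed it at 0. The second was Per2, with an interaction of -0.61 ± 0.29 (adjusted p = 0.931), which was -0.35 ± 0.22 without those libraries, where none of the 10 had an unadjusted p under 0.05 (3.14% of all genes). Without the 6 libraries, angiotensin II plus hydralazine against vehicle gave 4 genes at an unadjusted p under 0.05 (6.91% of all genes) and none called: Dbp at 0.35 ± 0.11, Cry2 at 0.22 ± 0.08, Cry1 at -0.24 ± 0.08 and Clock at -0.17 ± 0.08 (limma adjusted p from 0.707 to 0.715). Also without them, Cry1 at -0.16 ± 0.07 and Nr1d1 at -0.21 ± 0.09 had an unadjusted p under 0.05 between angiotensin II plus hydralazine and angiotensin II (adjusted p = 0.52 for both, 9.25% of all genes unadjusted). Against vehicle plus hydralazine, Cry2 at 0.18 ± 0.08 did so (adjusted p = 0.9999, 3.95% of all genes unadjusted), and vehicle plus hydralazine against vehicle gave none (2.21%).

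The opposed genes Arntl and Dbp can be read against each other within a library, where the difference of their log2 values is nearly free of a common scale factor. In the hemisphere, Dbp minus Arntl on the log2(FPKM + 0.5) scale averaged 2.00 ± 0.08 (SD, n = 6) in vehicle, 1.97 ± 0.26 in angiotensin II, 1.82 ± 0.21 in vehicle plus hydralazine and 2.18 ± 0.37 in angiotensin II plus hydralazine. The ranges were 1.89 to 2.12, 1.54 to 2.27, 1.54 to 2.08 and 1.62 to 2.64, and they overlapped between all groups. The SD was smallest in vehicle, and the highest and lowest means were those of the 2 groups with hydralazine. In the hippocampus without the libraries with few genes the means were 1.89 ± 0.22 (n = 4), 1.97 ± 0.32 (n = 5), 1.99 ± 0.27 (n = 4) and 2.23 ± 0.33 (n = 5) in the same order. With those libraries they were 2.23, 1.86, 2.37 and 2.20, and the highest value, 4.62, was that of vehicle plus hydralazine replicate 3, where Arntl is listed at 0. No test is given for this difference, because it was built from the genes studied. Since the labels give no time of collection, these values compare the groups and give no time of day.

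Arntl and Dbp went in opposite directions among hemispheres of 3 of the 4 treatment groups. Over 24 hemispheres, after removal of the group means, Pearson's r of Arntl and Dbp was -0.67 (permutation p = 0.00218, adjusted p = 0.0392 over 18 relations of Arntl in both tissues). Spearman's rho was -0.47 (permutation p = 0.035, adjusted p = 0.21), which did not pass after adjustment. Without the 2 libraries farthest in Arntl r was -0.60, and without angiotensin II replicate 6 it was -0.64 (adjusted p = 0.0887), with rho at -0.53 (adjusted p = 0.226). By group, r was -0.82 in angiotensin II, -0.46 in vehicle plus hydralazine, -0.87 in angiotensin II plus hydralazine and 0.44 in vehicle, over 6 libraries each. The vehicle group, in which Dbp minus Arntl had its smallest SD, had the opposite sign to the others. In angiotensin II plus hydralazine, replicate 4 had the lowest Arntl (3.45 FPKM) with the highest Dbp (24.2 FPKM), and replicate 5 the highest Arntl (4.78 FPKM) with the lowest Dbp (15.7 FPKM).

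**Figure D3:**
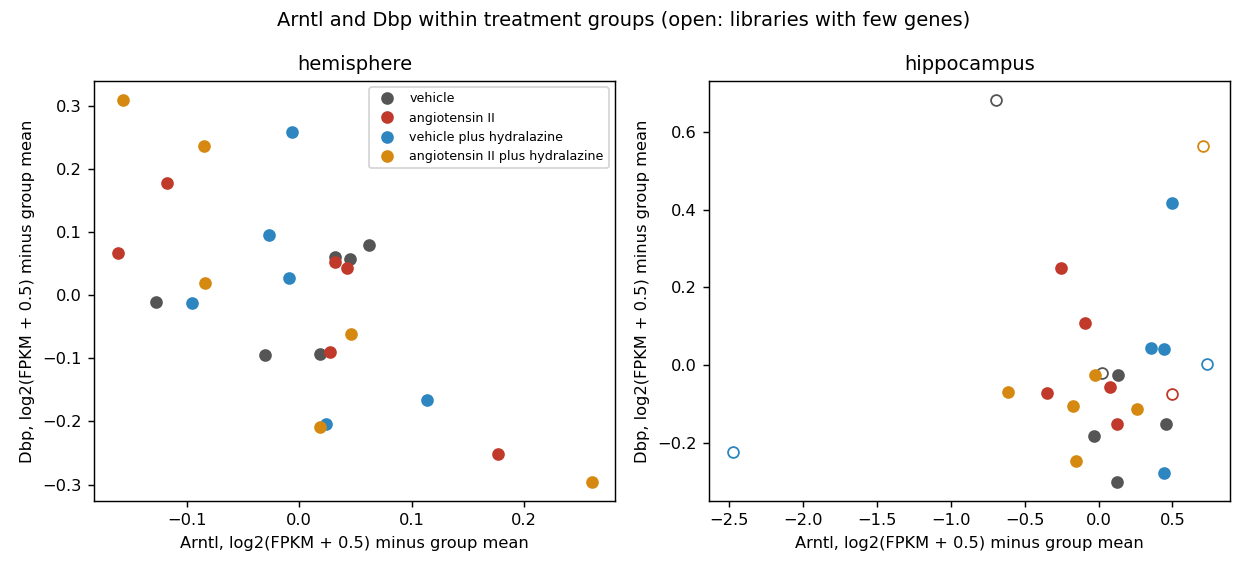
Dbp against Arntl in every library of each tissue, both as log2(FPKM + 0.5) minus the mean of the library's treatment group, with open points for libraries with few genes. Hemispheres run from upper left to lower right (r = -0.67), while the hippocampal points show no slope and the library listed at 0 for Arntl lies far to the left.

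The other hemisphere relations of Arntl with the clock genes did not pass after adjustment. Nr1d1, which represses Arntl, had r = -0.56 and rho = -0.49 (adjusted p = 0.0883 and 0.21). Cry1 had r = 0.57 and rho = 0.53 (adjusted p = 0.0883 and 0.21), and Clock r = 0.45 and rho = 0.39 (adjusted p = 0.173 and 0.339). Per1, Per2 and Per3 had r of -0.06, 0.30 and 0.04 with Arntl. In the hippocampus none of 9 relations passed, with r = 0.12 between Arntl and Dbp over 24 libraries and -0.08 over the 18 with many genes. By group the 24 gave -0.87 in vehicle, -0.48 in angiotensin II, 0.45 in vehicle plus hydralazine and 0.73 in angiotensin II plus hydralazine. These include the libraries with few genes, and r by group was not computed without them. Among those libraries, vehicle replicate 3 deviated from its group mean by -0.70 in Arntl and 0.68 in Dbp. Angiotensin II plus hydralazine replicate 5 deviated by 0.71 and 0.56. Among the other pairs, given as a description, Per2 with Cry1 (r = 0.80), Per1 with Cry2 (0.72) and Nr1d1 with Dbp (0.62) went together in the hemisphere. Over the 18 hippocampal libraries these were 0.43, 0.62 and 0.43. Cry1 with Nr1d1 was the most negative pair in the hemisphere (-0.68), and it was -0.51 without angiotensin II replicate 6. Clock with Nr1d2 also went together in the hemisphere (0.73), but r was 0.09 without that library. Nr1d1 and Nr1d2 went in opposite directions there (-0.62), with -0.21 without that library. These libraries share their scaling, so pairs of genes are not independent of depth.

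No gene's deviation in the hemisphere passed a test of correlation with that in the hippocampus of the same treatment and number, a pairing that the labels do not state. The 10 values of r ran from -0.42 (Per3) to 0.28 (Arntl) over 24 pairs, with adjusted permutation p from 0.401 to 0.944.

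The clock genes differed in how much they varied among libraries of a group. In the hemisphere, the pooled SD within groups on the log2(FPKM + 0.5) scale was 0.28 for Per1, 0.33 for Per2, 0.27 for Nr1d2 and 0.26 for Cry1. Among the genes within 0.5 log2 units of the same level these were at percentiles 95.7, 95.2, 93.8 and 89.4. Arntl, with an SD of 0.11, was at percentile 9.69, Clock at 15.9 and Cry2 at 22.9. Nr1d1 and Dbp were at 77.9 and 66. Some of these values rest on angiotensin II replicate 6: without it the SD of Nr1d2 was 0.10 (percentile 45.2), and Arntl was at percentile 28.8, Cry2 at 39.3, Nr1d1 at 88.7 and Dbp at 89.4, while Per1, Per2 and Cry1 were at 98.4, 96.7 and 92.4 and Clock at 7.41. In the 18 hippocampal libraries Per1 was at percentile 86.2 and Per2 at 77.6, Cry1 at 2.92 and Clock at 3.9. Over all 24 hippocampal libraries Per1 was at percentile 40.5, Per2 at 20.4, Cry1 at 74.2 and Clock at 2.53. Clock was thus low in each of these sets, and Per1 and Per2 were high in the hippocampus only without the libraries with few genes. The percentiles are a description with no test.

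Per1 is also an immediate early gene, so its level was set beside 20 immediate early genes such as Fos, Arc and Npas4, which neurons switch on when they fire. Over 24 hemispheres with group means removed, Per1 followed the mean of these genes with r = 0.78 and rho = 0.69 (permutation p = 0.00019 and 0.0007, adjusted p of r = 0.00228 over 12 relations), and r was 0.65 without the 2 libraries farthest on the x axis. Per2 did so with r = 0.68 and rho = 0.64 (adjusted p of r = 0.00248), and 0.57 without those libraries. Over the 18 hippocampal libraries Per1 had r = 0.79 and rho = 0.78 (adjusted p of r = 0.00248), and Per2 r = 0.54 (adjusted p = 0.0714). Over all 24 hippocampal libraries Per1 had r = -0.003, so the relation in the hippocampus was seen only when the libraries with few genes were left out. With 14 glucocorticoid response genes, such as Fkbp5 and Sgk1, the hemisphere r was 0.44 for Per1 (adjusted p = 0.0927) and 0.51 for Per2 (0.0243). Leaving out the 2 farthest libraries lowered these to 0.18 and 0.33. Over the 18 hippocampal libraries, with 13 of these genes, r was 0.68 for Per1 (adjusted p = 0.029) and 0.61 for Per2 (0.0547), and 0.47 and 0.31 without the farthest 2. Per1 thus passed with both lists there, and the lists were not tested against each other.

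The immediate early genes also differed between the groups in the comparison in which Per1 had its lower mean. In the hemisphere, angiotensin II against vehicle, all 20 had a lower estimate and 5 of 20 passed the test as lower (limma, adjusted p under 0.05), with a median log2 fold change of -0.59, against 0.0717% of all genes called in either direction. These were Dusp1, Arc, Junb, Btg2 and Nr4a1. The calls rest on single libraries: 0 of 20 passed without vehicle replicate 5, without vehicle replicate 6 or without angiotensin II replicate 4, 1 without vehicle replicate 2, 2 without vehicle replicate 4 or angiotensin II replicate 6, 3 without angiotensin II replicate 1, and 8 without vehicle replicate 3. At least 19 of 20 estimates were lower in each of these fits. With a replicate block 3 of 20 passed. With hydralazine added, angiotensin II plus hydralazine against vehicle, all 20 again had a lower estimate (median -0.42) and none passed, and the same held for vehicle plus hydralazine against vehicle (median -0.26). These 3 comparisons share the vehicle libraries. Arc, the dendritic immediate early gene, was at 90.7 ± 29.6 FPKM in vehicle and 24.3 ± 4.99 FPKM in angiotensin II (n = 6 each). Their part in the level of Per1 was not tested. Vehicle replicate 3, the vehicle library lowest in Per1, was also the vehicle library lowest in the mean of these genes. In the hippocampus 15 of 20 had a higher estimate with angiotensin II, where 42.8% of all genes had a lower one, and none passed.

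**Figure D4:**
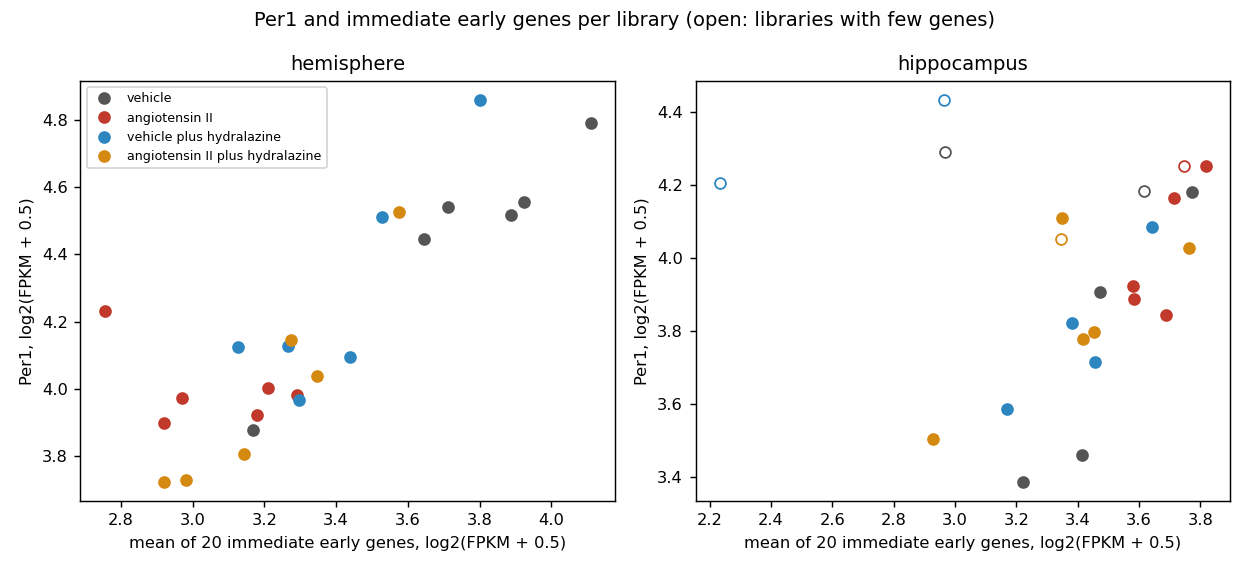
Per1 against the mean of 20 immediate early genes in every library, both as log2(FPKM + 0.5), without removal of group means. Points are coloured by treatment and open where few genes were detected; in the hemisphere most vehicle libraries lie at the upper right and those of angiotensin II at the lower left, and in the hippocampus the filled points run from lower left to upper right while 3 open points lie to the upper left.

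The clearest difference among the clock genes was between the tissues. In vehicle mice 6 of 10 passed the test, all lower in the hippocampus: Per1, Per2, Cry1, Nr1d1, Nr1d2 and Dbp. That share has to be read against 42.2% of all 17643 genes, of which 2244 were higher and 5198 lower. The median was -0.54 for the clock genes and -0.21 for all genes. In angiotensin II mice 2 of 10 passed (37% of all genes), in vehicle plus hydralazine 6 of 10 (50.7%) and in angiotensin II plus hydralazine 4 of 10 (42.4%), all lower. Without the 6 libraries with few genes 8, 5, 8 and 8 of 10 passed, against 63.9%, 61.7%, 64.7% and 66.7% of all genes, so as a set the clock genes were near the background.

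Scaling moved this comparison. Mitochondrial genes took 5.74% to 10.5% of the reads in genes in the hippocampus and 2.77% to 7.22% in the hemisphere, and their part was not tested. With quantile normalization the median in vehicle mice moved from -0.21 to 0.04, the calls over all genes became 4043 higher and 3951 lower in place of 2244 and 5198, and in the 4 treatments 6, 3, 5 and 4 clock genes were called (45.3%, 41.9%, 48.2% and 45.2% of all genes). In the other 3 treatments the calls over all genes went from 2183 higher and 4343 lower to 3721 and 3664, from 2180 and 6769 to 4311 and 4196, and from 2391 and 5082 to 4029 and 3946. In each treatment 1 of these was Clock, then called higher in the hippocampus, at 0.34 ± 0.12 in vehicle mice (limma adjusted p = 0.0178). On the deposited scale Clock had a log2 fold change of 0.07 to 0.12 over the 4 treatments and was not called. Without the libraries with few genes it was at 0.15 in vehicle, 0.12 in angiotensin II, 0.03 in vehicle plus hydralazine and -0.005 in angiotensin II plus hydralazine, also without a call. Per3 turned to an estimate above 0 under that scaling in 3 of the 4 treatments and Arntl in 2.

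Cry1 and Nr1d1 were lower in the hippocampus in all 4 treatments, also with quantile normalization and without the libraries with few genes. Cry1 ran from 2.33 to 4.27 FPKM with a median of 3.62 in the 6 vehicle hippocampi, and from 6.43 to 10.2 FPKM with a median of 7.97 in the vehicle hemispheres, with no overlap. Over all treatments the 24 hemispheres began at 3.94 FPKM, in replicate 6 of angiotensin II, and the 18 hippocampi with many genes ended at 3.8 FPKM. The log2 fold change was -1.12 ± 0.36 in vehicle mice (limma adjusted p = 0.00994), -1.31 ± 0.36 in angiotensin II (0.00308), -1.63 ± 0.36 in vehicle plus hydralazine (0.000208) and -1.15 ± 0.36 in angiotensin II plus hydralazine (0.0079). Without the libraries with few genes, some of which listed it at 0, it was -1.07 ± 0.13, -0.82 ± 0.12, -1.11 ± 0.13 and -1.07 ± 0.12. Nr1d1, which encodes REV-ERB alpha, ran from 11.3 to 19.6 FPKM with a median of 18.9 in the vehicle hippocampi, and from 28.3 to 34.5 FPKM with a median of 32.1 in the vehicle hemispheres, with no overlap. Its log2 fold changes were -0.85 ± 0.14 (limma adjusted p = 4.338e-06), -0.62 ± 0.14 (0.000587), -0.85 ± 0.14 (4.124e-06) and -0.68 ± 0.14 (0.000144) in the 4 treatments. Without the libraries with few genes the 18 hippocampal values ended at 24.87 FPKM and the 24 hemispheres began at 24.95 FPKM.

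Per1 differed between the tissues in vehicle mice, by -0.55 ± 0.16 (adjusted p = 0.0057), but not detectably in angiotensin II mice, with 0.05 ± 0.16 (adjusted p = 0.842). The test of that difference, given above as the response in hippocampus minus that in hemisphere, did not pass. Dbp had -0.41 ± 0.13 in vehicle mice (adjusted p = 0.00927) and Nr1d2 -0.43 ± 0.15 (adjusted p = 0.0213), and Nr1d2 was not called without the libraries with few genes (-0.27 ± 0.14, adjusted p = 0.0882). Per2 had -0.60 ± 0.19 (adjusted p = 0.0105), and -0.41 ± 0.20 with quantile normalization (adjusted p = 0.097). Arntl, at -0.64 ± 0.28, was not called over all libraries (adjusted p = 0.0672), but it was without the libraries with few genes, at -0.47 ± 0.11 (adjusted p = 0.000256). In vehicle plus hydralazine the genes called beside Cry1 and Nr1d1 were Per3 at -0.86 ± 0.25, Cry2 at -1.23 ± 0.41, Arntl at -0.88 ± 0.28 and Dbp at -0.32 ± 0.13 (limma adjusted p = 0.0046, 0.0118, 0.0089 and 0.0367). In angiotensin II plus hydralazine they were Per2 at -0.53 ± 0.19 and Nr1d2 at -0.42 ± 0.15 (adjusted p = 0.0231 and 0.0226). Per3, Cry2 and Arntl, called in vehicle plus hydralazine, are those that replicate 3 of that hippocampal group listed at 0 beside Cry1. Without the libraries with few genes Per3 lost the call in vehicle plus hydralazine (-0.17 ± 0.10, adjusted p = 0.132), while Cry2 (-0.44 ± 0.07) and Arntl (-0.44 ± 0.11) kept it. The markers of cerebellum and choroid plexus given above move with this comparison, and their part in it was not tested.

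**Figure D5:**
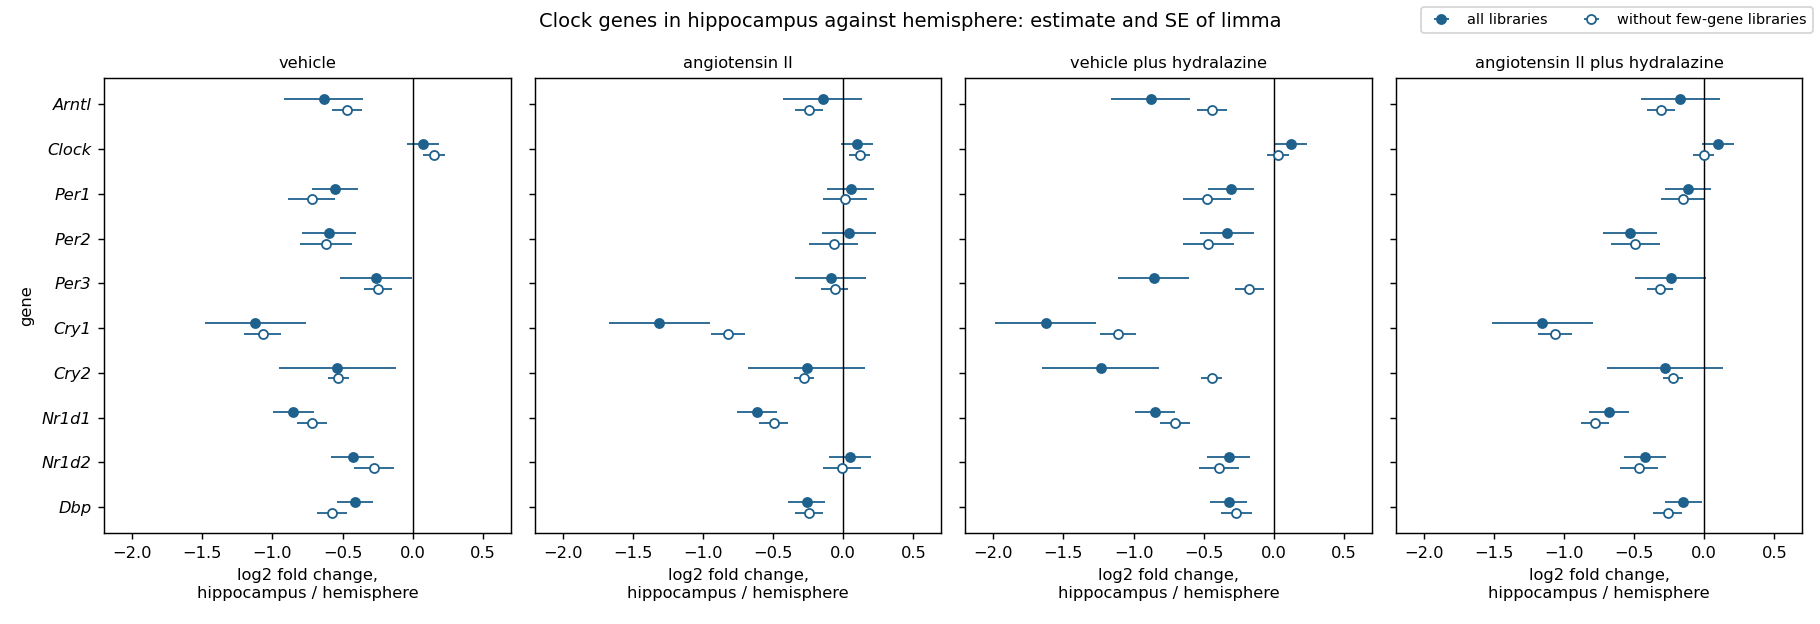
Log2 fold change of each clock gene between hippocampus and hemisphere in each treatment, with its SE from limma, over all libraries (filled) and without the 6 hippocampal libraries with few genes (open). Cry1 and Nr1d1 lie below 0 in all 4 panels and Clock near 0, and for Cry1, Cry2, Per3 and Arntl the filled and open points differ most in vehicle plus hydralazine.

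Of 28 other genes of the clock, among them the CLOCK paralogue Npas2 and the casein kinases that mark PER for decay, none was called in any comparison of treatments within a tissue. In the hemisphere with angiotensin II, 19 of the 28 had a lower estimate, with a median log2 fold change of -0.07. The smallest p belonged to Bhlhe40, a repressor that competes for E-boxes, at -0.34 ± 0.10, then to Hdac3 at 0.16 ± 0.05 and Bhlhe41 at -0.24 ± 0.07 (limma adjusted p = 0.346, 0.351 and 0.375). Between the tissues in vehicle mice 12 of 28 were called lower and 1 higher in the hippocampus, with a median of -0.37, against 42.2% of all genes called and a median of -0.21. The one called higher, named here after its values were seen, was the casein kinase gene Csnk1a1, at 0.70 ± 0.15 (limma adjusted p = 0.000205). Among the 6 with the smallest p were Cipc at -0.88 ± 0.14, Hlf at -0.62 ± 0.10, Timeless at -1.01 ± 0.18, Npas2 at -1.82 ± 0.33 and Csnk1e at -0.73 ± 0.13, each lower. Npas2, which can take the place of CLOCK, was at 6.08 ± 0.523 FPKM in the vehicle hemisphere and 1.63 ± 0.895 FPKM in the hippocampus, where 1 vehicle library listed it at 0. Clock was at 3.4 ± 0.249 and 3.61 ± 0.368 FPKM in the same groups.

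The 15 outputs of the clock listed, of which 13 were tested, gave none called between angiotensin II and vehicle in either tissue (0.0717% and 0% of all genes), and 6 of 13 called lower in the hippocampus of vehicle mice, against 42.2% of all genes called there. In the hemisphere 11 of 13 had a lower estimate with angiotensin II, with a median of -0.15. The genes whose deviations from the group means were most like those of Dbp over the 24 hemispheres, among 11717 protein-coding genes, were Polr3d (r = 0.78), Fam102a (0.76), Insig1 (0.72), Hyal1 (0.72) and Ciart (0.71), the last a repressor of the clock on the list of other clock genes. Those most like Arntl were Parp8 (0.72), Ints13 (0.70), Phf6 (0.66), Thbd (0.64) and Lig4 (0.63). In the hippocampus the most alike genes were Creg2 for Dbp (0.76) and Vps36 for Arntl (0.97) over 24 libraries. Over the 18 with many genes they were Pigt (0.79) and Araf (0.90). Arntl, listed at 0 in vehicle plus hydralazine replicate 3, deviated there by -2.48 on the log2 scale. The other hippocampal libraries lay between -0.70 and 0.73, and the part of that library in the r of 0.97 was not tested. The values of r describe likeness only.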

How the data were processed

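Total RNA of 24 hemispheres and 24 hippocampi was sequenced, and the authors deposited FPKM for 54532 genes with gene lengths. The submitters' processing notes name GRCm38, mm10 and DESeq 1.10.1. No aligner, counter or strand setting is named in the labels or headers. Whole reads recovered from FPKM and length (100% of values above 0, tolerance 0.1 read) gave depth and the mitochondrial share only.

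The scale was log2(FPKM + 0.5), which understates changes of low genes. After a filter (0.5 FPKM or more in 6 or more libraries), limma 3.58.1 (R 4.3.3; trend and robust prior, two-sided, Benjamini-Hochberg over all genes, threshold 0.05) was fitted once per tissue over its 4 treatments, and once over all 48 libraries for comparisons of tissues, taking libraries as independent. Nothing in the labels ties libraries to separate animals, so p-values measure the spread between libraries, which may be technical. Relations across libraries used two-sided permutation tests (100000 resamples) with group means removed. Tests were checked on simulated data.

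The clock genes, lists and tests were chosen with earlier results of these data known, and the relations of Per1 and Per2 with gene lists were added after values had been seen, as was the spread without 1 library. By rule, fold change, SE and adjusted p are printed for clock genes called or with an unadjusted p under 0.05, and the rest are given by range and count. At most 6 other clock genes per comparison are named, by smallest p (1 of them is not reported here), and the 5 protein-coding genes with the highest r (mean at least 1 FPKM). Other values were named after they were seen. Alternatives changed the pseudocount, filter, scaling, prior, weights, groups in the fit and replicate block, or left out libraries.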

Additional observations from a re-analysis of the deposited data

Results flagged for a closer look

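In 16 of the 80 sets of 6 libraries (10 clock genes in 8 groups), the highest or lowest library lay farther from the rest than Dixon's 95% limit. Chance gives about 1 in 20. Of the 16, 11 were in hippocampal libraries with few genes and 5 in replicate 6 of angiotensin II. No explanation was tested.

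In the hemisphere, angiotensin II replicate 6 was apart for 4 genes. Its Per1 was 18.3 FPKM (others 14.4 to 15.5) and its Nr1d1 40.9 FPKM (others 24.9 to 28.9). Its Cry1 was 3.94 FPKM (others 6.49 to 7.36) and its Nr1d2 5.24 FPKM (others 11.7 to 14). The hippocampal library of that treatment and number had Clock at 4.35 FPKM (others 3.3 to 3.61).

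In the hippocampus, vehicle plus hydralazine replicate 3 listed Cry1, Cry2 and Arntl at 0 (others from 2.91, 15.2 and 3.06 FPKM upwards) and had Clock at 5.58 FPKM (others 3.42 to 3.81). Angiotensin II replicate 3 listed Cry1 at 0 (others 3.05 to 3.64 FPKM). Angiotensin II plus hydralazine replicate 5 was highest in Clock at 5.44 FPKM (others 3.06 to 3.6), Nr1d1 at 27.7 FPKM (others 15.7 to 19.9) and Dbp at 26.1 FPKM (others 14.6 to 17.2). Vehicle replicate 4 was lowest in Nr1d1 at 11.3 FPKM (others 18.4 to 19.6) and Nr1d2 at 6.44 FPKM (others 10.3 to 12.4), and vehicle replicate 3 was highest in Dbp at 23 FPKM (others 11.4 to 13.9).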

How the results depend on the processing

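None of the 10 clock genes was called in the 12 comparisons of treatments within a tissue or in both tests of a difference between tissues, under any alternative that was run. The counts for hippocampus against hemisphere moved. In vehicle mice (6 called) it was 10 with library weights (70.8% of all genes), with Clock as the 1 called higher. In angiotensin II mice (2 called) it was 7 with library weights (72.3%), 4 with only the groups compared (48.9%) and 5 without the 6 libraries with few genes. In vehicle plus hydralazine (6 called) it was 2 with only the groups compared (34.3%). In angiotensin II plus hydralazine (4 called) it was 8 with library weights (72.7%) and 8 without the libraries with few genes, and leaving out 1 library at a time gave 2 to 4, with 2 without hippocampal angiotensin II plus hydralazine replicate 6. Over all genes, leaving out the libraries with few genes raised the calls from 7442 to 11209 in vehicle, from 6526 to 10833 in angiotensin II and from 7473 to 11709 in angiotensin II plus hydralazine, library weights gave 12483, 12764 and 12827 in these, and only the groups compared gave 5222 in place of 8949 in vehicle plus hydralazine. Hemisphere angiotensin II against vehicle (12 called) gave 38 with library weights, 4 with no filter, 2 with only the groups compared and 0 to 20 with 1 library left out (0 without vehicle replicate 5 or 6 or angiotensin II replicate 4, 3 without vehicle replicate 2, 6 without vehicle replicate 4 or angiotensin II replicate 5, 20 without vehicle replicate 3). Of the 20 immediate early genes (5 called there), 2 were called with no filter or only the groups compared. With library weights hemisphere angiotensin II plus hydralazine called 102 genes against vehicle and 1 against angiotensin II, and hippocampal angiotensin II plus hydralazine called 6 against vehicle plus hydralazine, each in place of 0. Without angiotensin II replicate 6, hemisphere angiotensin II plus hydralazine against vehicle called 3 genes in place of 0. The difference between tissues in the response to angiotensin II called 1 gene in place of 0 with quantile normalization, 1 with only the groups compared, 1 without the libraries with few genes and 3 with library weights. The cause was not tested. Of the values of single genes, 15 lost and 7 gained a call under an alternative, and 11 lost and 2 gained one when a single library was left out.

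Per3 in the hippocampus, angiotensin II plus hydralazine against vehicle plus hydralazine, turned to -0.026 without the libraries with few genes, and r of Arntl and Dbp in the hippocampus turned from 0.12 to -0.081. In the hemisphere that r was -0.64 without angiotensin II replicate 6 and no longer passed (adjusted p = 0.0887). Dbp minus Arntl in vehicle hemispheres was 2.10 with a pseudocount of 0.1 and 1.90 with one of 1, since the pseudocount raises the lower gene more.

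Same-numbered libraries were compared as a check of pairing. Of 36 same-numbered pairs of treatments per tissue, 3 in the hemisphere and 10 in the hippocampus had a correlation of deviations over 0.1. None of 24 pairs between tissues did. Pairs with different numbers were not compared, so the check cannot tell whether a number stands for a mouse. With a replicate block the tissue counts were 6, 2, 5 and 3 (40%, 34.6%, 48.9% and 40.4% of all genes), and r of Arntl and Dbp was -0.69 in the hemisphere and 0.298 in the hippocampus. Over all genes, hemisphere angiotensin II against vehicle called 5 with the block and 12 without, and 2 comparisons with hydralazine (against vehicle, and with angiotensin II added) called 1 gene each in place of 0. The calls lost were those of Dbp in vehicle plus hydralazine (adjusted p = 0.0775) and Per2 in angiotensin II plus hydralazine (0.0583). Low depth limits the genes listed at 0 in the shallowest library.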
